A study of Mus musculus with 6 samples.

Results

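Immune checkpoint and costimulatory molecules were examined as 10 genes, Cd274, Pdcd1lg2, Cd80, Cd86, Cd40, Lgals9, Havcr2, Vsir, Sirpa and Cd47, taken by their symbols from the 55357 genes listed for cultured mouse cortical astrocytes. All 10 symbols were found, each on a single row. The RNA came from 6 samples. In 3 of them (KE), the astrocytes had received a plasmid in which the CMV promoter drives FLAG-tagged BRAF K499E, a RASopathy-associated BRAF mutant, and cells were collected at 48 hours. The other 3 (NT, genotype given as naive) were nontransfected. The CMV promoter is not specific to astrocytes, and the share of cells that took up the plasmid is not given in the sources used here. Both groups were primary cultures from the cortex of C57BL/6 embryos late in gestation, shaken to detach loosely attached cells before replating. The medium that the supplemental methods give for the replated astrocytes contained the growth factor HB-EGF. BRAF KE, plasmid DNA and the transfection procedure cannot be told apart in this design. In the paper's staining experiment the BRAF plasmid was given with a GFP plasmid, and the paper does not say whether the cultures for RNA also received it. Nothing in the labels says whether replicates were separate preparations, so p-values measure the spread between these samples, which may in part be technical.

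Checkpoint and costimulatory molecules are surface or secreted proteins that set how strongly T cells and phagocytes respond to the cell that displays them. CD80 and CD86 stimulate T cells through CD28 and restrain them through CTLA-4, PD-L1 and PD-L2 restrain them through PD-1, and CD40 receives an activating signal from CD40 ligand. CD47 on a cell surface restrains phagocytosis by binding SIRPα on macrophages and microglia, while galectin-9, TIM-3 and VISTA are further inhibitory molecules. In the brain, microglia carry most of the receptors of this group, and PD-L1 and CD47 are also made by many cells outside the immune system.

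These genes moved in both directions. Transcripts of Cd274 (PD-L1), Lgals9 (galectin-9), Cd40 and Cd47 were higher in BRAF KE–transfected astrocytes, by 4.09-fold, 3.05-fold, 2.08-fold and 2.06-fold in group means. Transcripts of Havcr2 (TIM-3), Cd86, Vsir (VISTA) and Sirpa (SIRPα) were lower, with NT means that were 7.46, 6.68, 4.37 and 1.64 times the KE means. Cd80 was not called, and Pdcd1lg2 (PD-L2) was at or near 0 everywhere. A gene was called when limma, fitted to log2(normalized count + 1) of the 15280 genes with a mean of at least 10, gave an adjusted p under 0.05. Of the 9 genes that passed this filter, 4 were called higher, against 25.3% of all tested genes, and 4 were called lower, against 26.0%. In total 8 of 9 were called, against 51.3% of all tested genes. All 4 genes called higher had a log2 difference above 1, where 4.74% of all tested genes were both called and above 1. Of the 4 called lower, 3 were below -1, where 5.69% of all tested genes were both called and below -1. For 8 of 9 genes the ranges of both groups were separate (59.9% of all tested genes), 4 with KE above (30.1%) and 4 with KE below (29.9%). The median of the absolute log2 difference was 1.63 for the 9 genes and 0.30 for all tested genes, and the signed medians were 0.36 and 0.00.

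**Figure D1:**
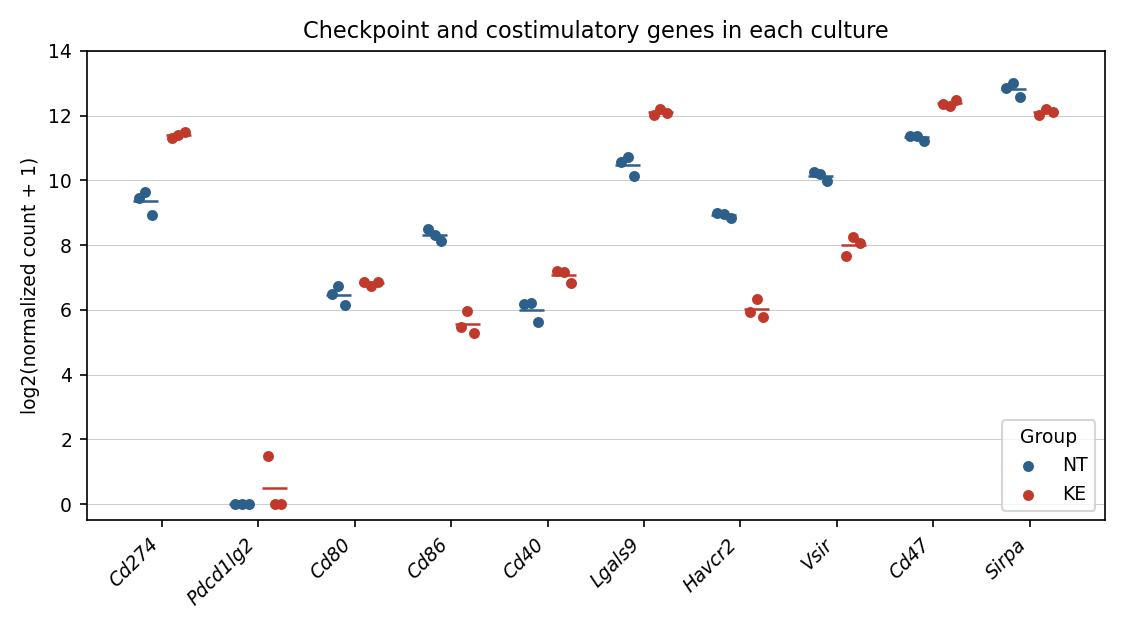
Level of each of the 10 genes in each culture, as log2 of the normalized count plus 1 on the vertical axis, with NT in blue, KE in red and a line at each group's mean (n = 3). The groups are apart for 8 genes, overlap for Cd80, and Pdcd1lg2 is at 0 in 5 of the 6 cultures.

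Some facts about the cultures bear on every value. Normalized counts summed to between 30472429 and 30895529 per sample, and the step of the lowest values put the depth at approximately 24500000 reads in KE replicate 2 and 29500000 to 34100000 in the others. Braf, the transfected gene, had means of 894 ± 73.1 normalized counts in NT (SD, n = 3) and 36979 ± 3464 in KE (SD, n = 3). Of 12 astrocyte markers, 11 were tested, 7 were called higher and 2 lower, and the most abundant were Slc1a3 and Gfap, with means over the 6 samples of 43609 and 24399.9 normalized counts. Of 24 markers of microglia and other myeloid cells, 23 were tested and 22 were called lower in KE, with a median log2 difference of -3.33. The summed level of the 24 markers lay between 70234 and 87941 in NT and between 10296 and 13377 in KE. Adgre1 was the most abundant (mean of 6022 normalized counts over the 6 samples), Siglech was listed at 0 in all 6 samples, and Sall1 was the tested marker that was not called (log2 difference 0.03). In a bulk sample, fewer cells of a type and less RNA per cell cannot be told apart. The 7 oligodendrocyte lineage markers, led by Olig1 and Olig2, were all called lower with a median log2 difference of -0.55. Among the 5 tested neuronal markers 1 was called higher and 2 lower, with Map2 and Stmn2 the most abundant. Of the endothelial markers, led by Pecam1 and Kdr, 1 of 2 tested was lower, and of the 4 mesenchymal markers, led by Lum and Pdgfrb, 1 was higher and 1 lower. Only Zbtb46 of the 6 dendritic cell markers was tested, at 136 normalized counts in KE and 137 in NT, and Itgax, the next most abundant, was 1.81, 3.75 and 3.62 normalized counts in KE and 13.9, 14.5 and 11.4 in NT, lower in KE without overlap but under the mean filter. Of the 9 lymphocyte markers, Cd3e, Cd3d, Cd3g and Cd8a were listed at 0 in all 6 samples, and Lck was the single tested marker, at 121 normalized counts in KE and 39.1 in NT, while Cd79a, the next most abundant, was between 0 and 1.91 in all 6 samples.

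Promoter sequences are shown for Lgals9 and Havcr2, the ligand and receptor pair that moved furthest apart, and for Vsir, another gene that fell. They come from the RefSeq sequences of the 250 bases before the annotated start (table build GRCm38.p6), each found once by exact match in GRCm39. The table held 7 of the 10 genes, with Cd40, Cd86 and Sirpa missing. In each, both strands were searched for 5 motifs that bind factors of immune genes. These were the core of the interferon-stimulated response element (ISRE, GAAA and GAAA parted by any 2 bases), the STAT-binding GAS element TTCNNNGAA, a kappaB element (GGGA, any base, then TTTCC), the AP-1 element TGANTCA and the PU.1 element GAGGAAGT. In the same order, these letters occur in 2.98%, 7.02%, 0.356%, 6.75% and 2.44% of the 32851 promoters of this length in the table. Capitals mark a match, no matches overlapped, and bases that Gencode annotates as untranslated exon were left out of the print, apart from the end of a motif.
Lgals9: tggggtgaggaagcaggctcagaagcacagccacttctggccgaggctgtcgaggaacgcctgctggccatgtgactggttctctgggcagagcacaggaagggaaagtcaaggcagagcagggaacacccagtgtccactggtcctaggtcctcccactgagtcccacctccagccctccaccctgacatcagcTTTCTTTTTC
Havcr2: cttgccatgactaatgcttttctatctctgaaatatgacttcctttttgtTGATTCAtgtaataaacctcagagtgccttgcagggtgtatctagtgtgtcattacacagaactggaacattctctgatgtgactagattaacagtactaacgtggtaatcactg
Vsir: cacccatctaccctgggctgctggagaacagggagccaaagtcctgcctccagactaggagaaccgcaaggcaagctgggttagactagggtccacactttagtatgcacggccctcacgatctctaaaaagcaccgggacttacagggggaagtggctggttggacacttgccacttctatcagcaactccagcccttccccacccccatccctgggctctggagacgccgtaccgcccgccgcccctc

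The Lgals9 sequence lies on the minus strand at chr11:78875796-78876000 in GRCm39. It holds 1 ISRE core, read on the opposite strand, from -55 to -46 before the RefSeq start, and Lgals9 was the single one of the 7 genes with that motif. The Gencode gene begins 48 bases before the RefSeq start, so the match straddles its first base. The Havcr2 sequence lies on the plus strand at chr11:46345508-46345672. It holds an AP-1 element from -200 to -194. A PU.1 element from -8 to -1 lies in the part not printed, within the Gencode gene, which begins 85 bases before the RefSeq start. The Vsir sequence, on the plus strand at chr10:60182380-60182629, holds none of the 5 motifs. Cd80 has an AP-1 element from -42 to -36, past the first base of its window that Gencode annotates as untranslated exon. The windows of Cd274 and Cd47, which begin in bases that Gencode annotates as untranslated exon, and that of Pdcd1lg2 hold none of the motifs. A match describes the sequence and was not measured as binding, and no match says only that these letters are not in this window.

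PD-L1 and PD-L2 are the ligands of PD-1, the receptor that dampens activated T cells. Cd274 (ENSMUSG00000016496) lies on the plus strand of chromosome 19 of GRCm39 from 29344529 to 29365495, and its annotated span overlaps the minus strand genes Plgrkt and Gm36043. Its normalized counts were 2539, 2694 and 2906 in KE replicates 1 to 3 and 708, 793 and 489 in NT replicates 1 to 3. All KE values lay far above all NT values, and NT replicate 3 was the lowest of all. The log2 difference was 2.06 (SE 0.14, 95% interval 1.74 to 2.38, adjusted p = 7.2e-07 from limma), which ranked 194 from the top among the 15280 tested genes. Pdcd1lg2 (ENSMUSG00000016498) lies downstream on the same strand, from 29388319 to 29448882. It was at 1.81 normalized counts in KE replicate 1 and listed at 0 in the other 5 samples, so that, unlike its neighbour Cd274, it had no level that could be compared. PD-1 itself (Pdcd1) was at 0.90, 1.25 and 0.91 normalized counts in KE and listed at 0 in NT, about 1 read in each KE sample.

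CD80 and CD86 are the paired ligands of CD28 and CTLA-4, made mainly by antigen-presenting cells. Cd80 (ENSMUSG00000075122, chromosome 16, plus strand, 38275923 to 38316697) had 116, 105 and 116 normalized counts in KE and 88.4, 107 and 70.3 in NT. NT replicate 2 lay above KE replicate 2, so the groups overlapped. The log2 difference was 0.36 (95% interval -0.04 to 0.76, adjusted p = 0.118 from limma), and over the alternatives the adjusted p ran from 0.0365 to 0.361. Cd80 was called with quantile normalization (log2 difference 0.49, adjusted p = 0.0365) and without NT replicate 2 (0.50, adjusted p = 0.0465), and in no other alternative.

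Cd86 (ENSMUSG00000022901, chromosome 16, minus strand, 36424044 to 36486443) had 43.6, 61.4 and 38.2 normalized counts in KE and 359, 318 and 280 in NT. All KE values were far below all NT values. The log2 difference was -2.74 (SE 0.19, 95% interval -3.15 to -2.32, adjusted p = 6.5e-07 from limma). The ratio of Cd80 to Cd86, each plus 1 normalized count, was 1.70 to 2.99 in KE and 0.248 to 0.338 in NT, with log2 means of 1.24 ± 0.43 in KE and -1.85 ± 0.25 in NT (SD, n = 3) and a difference of 3.10. An exact two-sided permutation test gave p = 0.1, the smallest that 3 samples against 3 allow, and 0.1 after adjustment over the 4 ratios computed. Of their receptors, Cd28 was 4.52, 7.501 and 2.72 normalized counts in KE and 39.6, 34.2 and 31.5 in NT (log2 difference -2.68, adjusted p = 1.8e-04 from limma). Cd28 passed the mean filter only through NT, and its log2 difference was -2.04 with a pseudocount of 5. Ctla4 was listed at 0 in all 6 samples.

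CD40 is a receptor of the TNF receptor superfamily that activates antigen-presenting cells through TRAF adaptor proteins. Cd40 (ENSMUSG00000017652, chromosome 2, plus strand, 164897544 to 164914868) had 147, 142 and 113 normalized counts in KE and 71.7, 73.4 and 48.2 in NT. The third replicate was the lowest of each group, and the groups were apart. The log2 difference was 1.06 (SE 0.20, 95% interval 0.61 to 1.504, adjusted p = 0.00121 from limma), the widest standard error of the 8 called genes. Its ligand Cd40lg was listed at 0 in all 6 samples. Among the adaptors, Traf2 was called higher (log2 difference 0.36, adjusted p = 0.00389 from limma), while Traf3 (-0.08) and Traf6 (-0.10) were not called.

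Galectin-9 is a secreted lectin that binds TIM-3, an inhibitory receptor of T cells and myeloid cells. Lgals9 (ENSMUSG00000001123, chromosome 11, minus strand, 78853800 to 78875798) had 4186, 4676 and 4318 normalized counts in KE and 1514, 1675 and 1129 in NT. The KE values lay close together and well above the NT values. The log2 difference was 1.63 (SE 0.12, 95% interval 1.36 to 1.89, adjusted p = 1.0e-06 from limma). Havcr2 (ENSMUSG00000020399, chromosome 11, plus strand, 46345673 to 46374149), which encodes TIM-3, had 60.6, 80.0 and 54.3 normalized counts in KE and 508, 493 and 453 in NT. It showed the largest fall of the 10 genes, a log2 difference of -2.90 (SE 0.15, 95% interval -3.24 to -2.56, adjusted p = 9.8e-08 from limma), ranking 265 from the bottom among the tested genes. Ligand and receptor thus moved apart, and the ratio of Lgals9 to Havcr2 was 57.7 to 78.1 in KE and 2.49 to 3.39 in NT. The difference of 4.52 on the log2 scale was the largest of the 4 ratios (exact permutation p = 0.1).

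Other molecules linked to TIM-3 were mixed. Ceacam1, which encodes a surface partner of TIM-3, was 3.69, 8.52 and 8.67 normalized counts in KE and 63.4, 20.01 and 35.5 in NT (log2 difference -2.28, adjusted p = 0.00181 from limma). Ceacam1 passed the mean filter only through NT, and its log2 difference was -1.81 with a pseudocount of 5. Hmgb1, a nuclear protein that TIM-3 can bind when released, was called lower (-0.92). Bag6, which encodes a protein that binds the TIM-3 tail, was not called (-0.09, 95% interval -0.22 to 0.04).

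VISTA is an inhibitory molecule found mainly on myeloid cells. Vsir (ENSMUSG00000020101, chromosome 10, plus strand, 60182630 to 60208463) lies within the span of Cdh23 on the opposite strand. It had 203, 302 and 269 normalized counts in KE and 1223, 1159 and 1004 in NT, and the groups were far apart. The log2 difference was -2.14 (SE 0.14, 95% interval -2.45 to -1.83, adjusted p = 3.9e-07 from limma). Igsf11, whose product is a ligand of VISTA, moved the other way, from 1227, 1386 and 1350 normalized counts in NT to 1954, 1841 and 1973 in KE (log2 difference 0.54, adjusted p = 6.3e-05 from limma).

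CD47 and SIRPα form the axis by which a cell signals to phagocytes that it should not be engulfed. Cd47 (ENSMUSG00000055447, chromosome 16, plus strand, 49620896 to 49735373) had 5253, 4993 and 5682 normalized counts in KE and 2669, 2670.4 and 2376 in NT. The groups were far apart relative to their spread, and the log2 difference was 1.05 (SE 0.07, 95% interval 0.89 to 1.198, adjusted p = 4.5e-07 from limma), the narrowest standard error of the group. Sirpa (ENSMUSG00000037902, chromosome 2, plus strand, 129434039 to 129474148) had 4169.8, 4669.8 and 4395 normalized counts in KE and 7392, 8175 and 6122 in NT. It was lower in every KE sample, but by less than the other 3 falling genes, with a log2 difference of -0.70 (SE 0.09, 95% interval -0.91 to -0.50, adjusted p = 9.4e-05 from limma). Sirpa has paralogs of similar sequence in the mouse, such as Sirpb1a, which was between 0 and 3.62 normalized counts, and the authors' counting could divide reads among them. The ratio of Cd47 to Sirpa was 1.07 to 1.29 in KE and 0.327 to 0.388 in NT, a log2 difference of 1.75 (exact permutation p = 0.1). Around this axis, Thbs1, a secreted ligand of CD47, was lower in KE (-0.48, adjusted p = 0.00596 from limma). Qpctl, the enzyme that modifies the end of CD47 that SIRPα recognizes, was 830, 853 and 804 normalized counts in KE and 738, 771 and 669 in NT (0.19, 95% interval 0.02 to 0.37, adjusted p = 0.0613 from limma) and was not called. The phosphatases recruited by SIRPα split, as Ptpn6 (SHP-1) fell from 973, 1161 and 651 normalized counts in NT to 79.2, 97.4 and 132 in KE (-3.15, adjusted p = 6.5e-07 from limma), whereas Ptpn11 (SHP-2) was not called (-0.04, 95% interval -0.17 to 0.08).

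**Figure D2:**
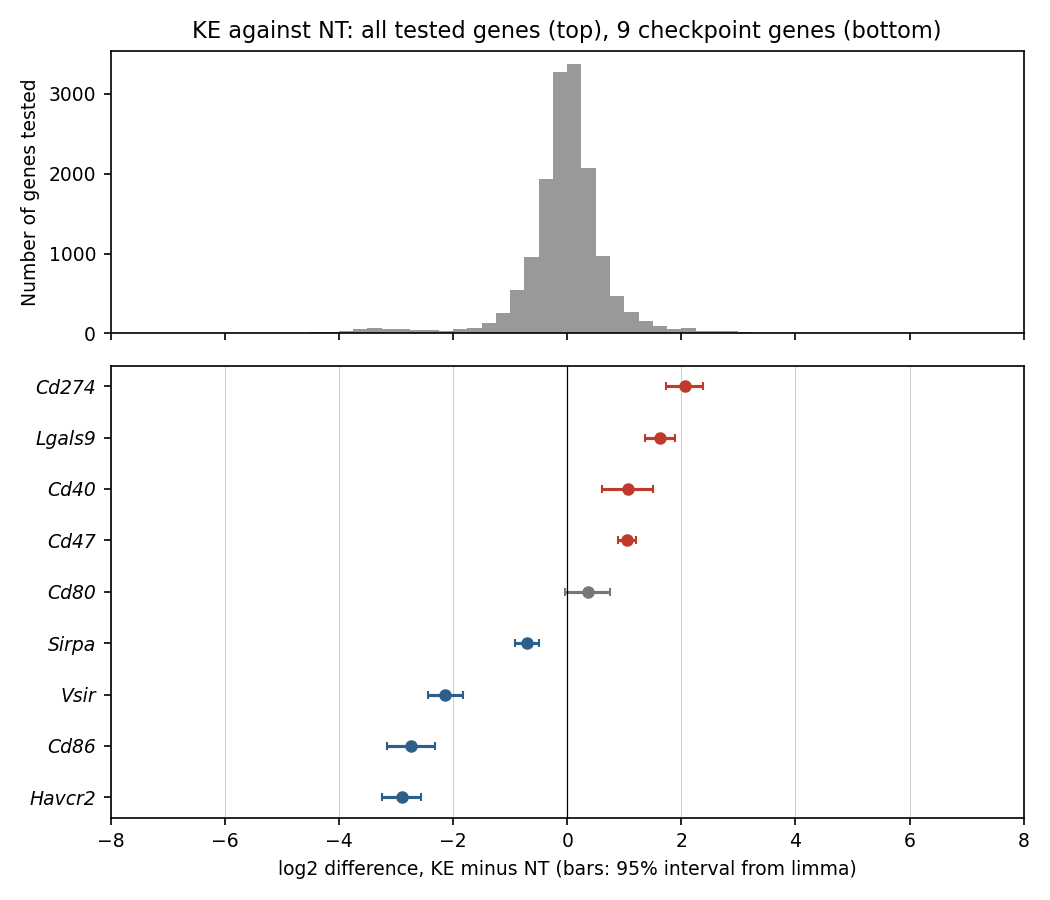
Top, number of tested genes in each bin of the log2 difference between KE and NT; bottom, the log2 difference of 9 of the 10 genes with 95% intervals, red where called higher, blue where called lower and grey where not called. Cd274 at 2.06 and Havcr2 at -2.90 lie far out on either side, where all tested genes have a median absolute difference of 0.30.

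Levels were also set per length of exon, as normalized counts per kilobase of the union of Gencode vM39 exons, so that the genes could be ordered within a group. These lengths depend on the annotated isoforms, and effective lengths of the samples were not used. In NT the order of the mean was Sirpa (1033 per kb), Lgals9 (634), Cd47 (293), Vsir (225), Cd274 (163), Havcr2 (99.3), Cd86 (82.9), Cd80 (21.4), Cd40 (18.9) and Pdcd1lg2 (0). Neighbours whose 3 values overlapped were Havcr2 with Cd86, and Cd80 with Cd40. In KE the order was Lgals9 (1935 per kb), Cd274 (665), Sirpa (630), Cd47 (606), Vsir (51.5), Cd40 (39.2), Cd80 (27.2), Havcr2 (13.3), Cd86 (12.4) and Pdcd1lg2 (0.26). Here Cd274 overlapped Sirpa, Sirpa overlapped Cd47, Vsir overlapped Cd40, and Havcr2 overlapped Cd86. By mean, Cd274 thus went from rank 5 in NT to rank 2 in KE, and Sirpa from rank 1 to rank 3. The KE values of Cd274 (622 to 712 per kb) also overlapped those of Cd47 (569 to 648), so the order of Cd274, Sirpa and Cd47 in KE is not firm.

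Because myeloid markers were lower in KE, each gene was also expressed relative to the summed level of the 24 markers in the same sample. Havcr2 had 5.88, 5.98 and 5.16 normalized counts per 1000 of the myeloid sum in KE and 5.86, 5.60 and 6.45 in NT. Cd86 had 4.23, 4.59 and 3.63 in KE and 4.14, 3.61 and 3.99 in NT. The groups overlapped for both genes on this scale, with log2 differences of -0.05 and 0.11, and for none of the other 7 tested genes. The share of all tested genes that overlap on this scale was not computed. Vsir had 19.7, 22.6 and 25.5 per 1000 in KE and 14.1, 13.2 and 14.3 in NT, a log2 difference of 0.70. Sirpa had 405, 349 and 417 in KE and 85.2, 93.0 and 87.2 in NT, a log2 difference of 2.14, so that it fell far less than the marker sum did. The genes that rose, and Cd80, stood higher in KE on this scale by 3.20 (Cd80), 3.89 (Cd47), 3.90 (Cd40), 4.47 (Lgals9) and 4.90 (Cd274). The log2 difference of the marker sum itself was -2.84. A gene with equal normalized counts in both groups therefore stands higher in KE on this scale by the size of that difference. Sall1 made up 2717 to 2912 normalized counts of the sum in KE and 2678 to 2856 in NT, and without it, a choice made after the data were seen, the sum differed by -3.21. Havcr2 then stood at 0.31, Cd86 at 0.47, Vsir at 1.07 and Sirpa at 2.50, and the groups no longer overlapped for Havcr2 or Cd86. These ratios are values with no test, and the part of the myeloid markers in each result was not tested.

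**Figure D3:**
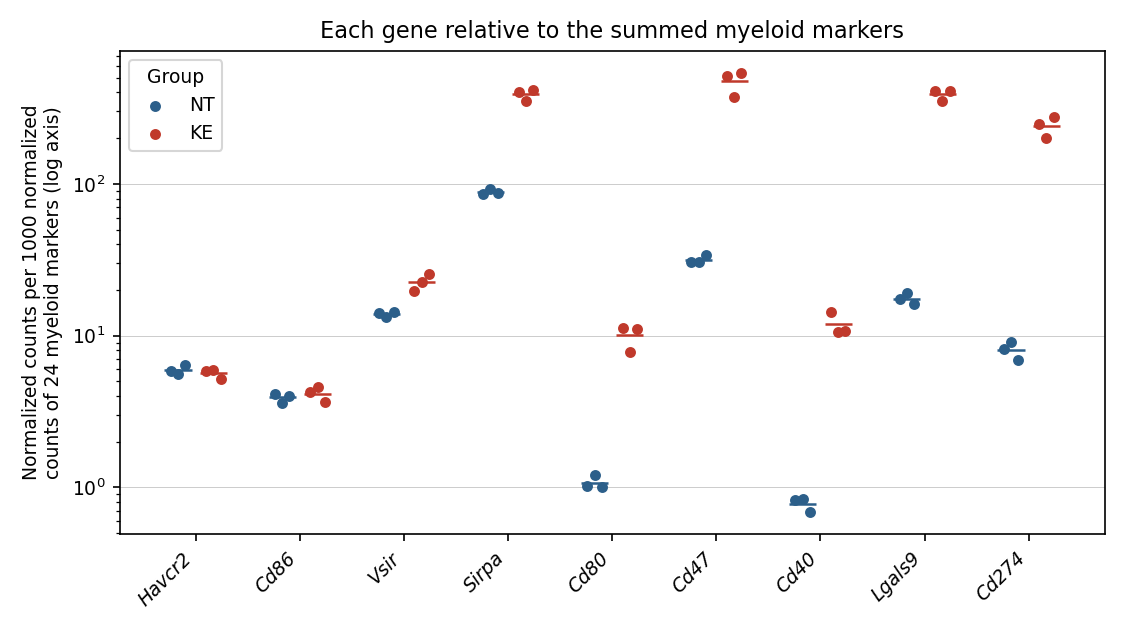
Normalized counts of 9 of the 10 genes per 1000 normalized counts of the 24 myeloid markers in the same culture, on a log axis, with NT in blue, KE in red and a line at each group's mean (n = 3). Havcr2 and Cd86 overlap between the groups (for Cd86, 3.63 to 4.59 in KE and 3.61 to 4.14 in NT), and the other genes are higher in KE. The marker sum is lower in KE, so a gene with equal counts in both groups would also be higher in KE on this axis.

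A list of 58 further checkpoint and costimulation genes was compared in the same fit. Of these, 37 were tested, 6 were called higher (25.3% of all tested genes were) and 15 lower (26.0%), and 16 were not called. The 21 calls in all stand against 51.3% of all tested genes, a share near that of the list. Among these calls, Fgl1 and Cd70 (higher) and Cd28, Ceacam1 and Pilrb1 (lower) passed the mean filter only through the group where they are high. With a mean of at least 50 required, 4 were called higher and 11 lower, where 7251 of all 12965 tested genes were called. The median log2 difference was -0.09, and 6 of the 58 were listed at 0 in all samples, the T cell receptors Ctla4, Tigit and Cd160 among them. Pilra, an inhibitory receptor of myeloid cells, went from 387, 457 and 368 normalized counts in NT to 30.3, 14.4 and 9.74 in KE (log2 difference -4.54, adjusted p = 7.4e-07 from limma), and its activating relative Pilrb1 went from 79.7, 88.1 and 48.9 to 5.65, 1.77 and 1.71. The log2 difference of Pilrb1 was -4.27, and -3.26 with a pseudocount of 5, and it passed the mean filter only through NT. These relatives are similar in sequence, and how reads were shared out between them is uncertain. Cd200r1, the inhibitory receptor of CD200, fell from 212, 160 and 163 to 15.4, 16.4 and 9.26 normalized counts (-3.63, adjusted p = 6.5e-07 from limma), while its ligand Cd200 rose from 209, 236 and 240 to 353, 296 and 312 (0.49, adjusted p = 0.00441 from limma). Ligand and receptor therefore moved apart here as for Lgals9 and Havcr2. Cd48 (-3.43) and its receptor Cd244a (-1.68) both fell, as did the kinase gene Ptk2b (-1.57) and Tnfrsf14 (-1.30), the receptor of BTLA and LIGHT. Lgals1 (-0.31), which encodes galectin-1, and Cd24a (-0.29) fell by less.

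Among the genes called higher, Fgl1, a ligand of LAG-3, was 30.7, 20.02 and 27.1 normalized counts in KE and 3.96, 12.4 and 7.66 in NT (log2 difference 1.67, adjusted p = 0.00624 from limma). Fgl1 passed the mean filter only through KE, and its log2 difference was 1.29 with a pseudocount of 5. Cd70, the ligand of CD27, was 21.6, 26.3 and 14.5 in KE and 4.96, 8.24 and 12.5 in NT (1.23, adjusted p = 0.0279 from limma). Cd70 also passed the mean filter only through KE, and its log2 difference was 0.94 with a pseudocount of 5. Its call was lost when KE replicate 1, KE replicate 2, NT replicate 1 or NT replicate 2 was left out (adjusted p from limma 0.0152 to 0.0959 over its alternatives). Pvr (0.57) rose as well, and its receptor Tigit was listed at 0 in all 6 samples. Of the proteins that hold PD-L1 at the cell surface, Cmtm6 was called lower (-0.31, adjusted p = 0.00214 from limma) and Cmtm4 was not called (-0.09, 95% interval -0.21 to 0.03). Rgmb, whose product binds PD-L2, was not called (0.05, 95% interval -0.11 to 0.21).

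**Figure D4:**
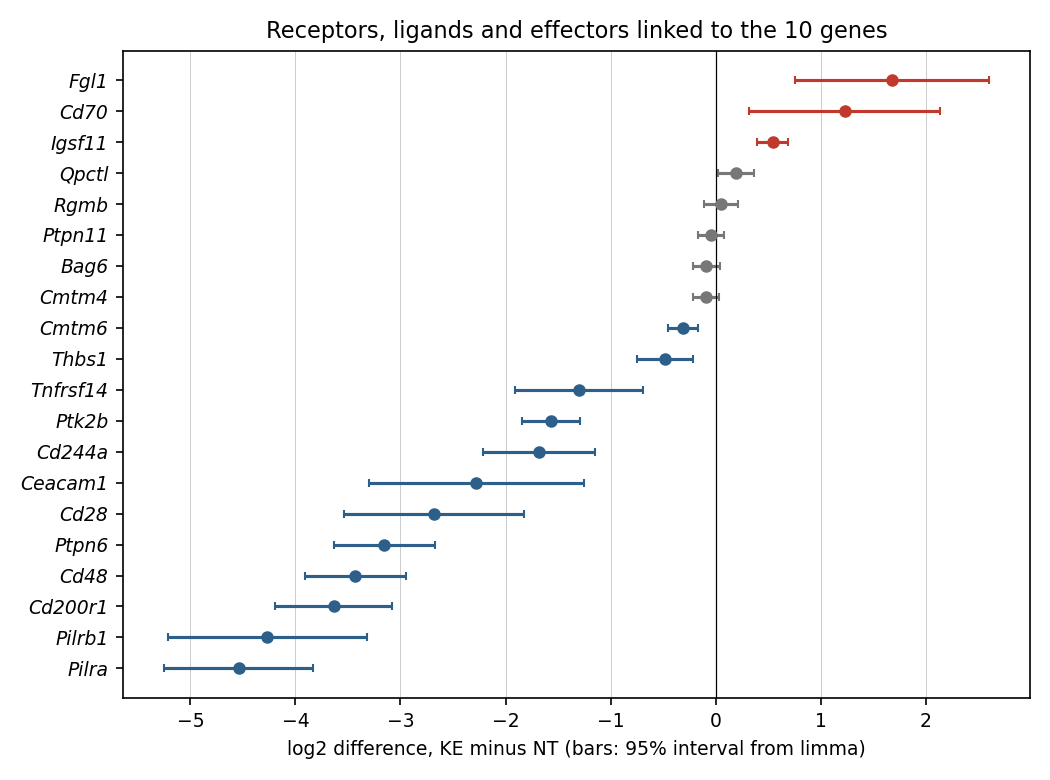
Log2 difference between KE and NT, with 95% intervals, of 20 tested receptors, ligands and effectors named for their link to the 10 genes or for the size of their change. Blue genes were called lower, red genes higher and grey genes neither. The falls reach -4.54 for Pilra and the rises 1.67 for Fgl1. Fgl1 and Cd70 passed the mean filter only through KE, and Cd28, Ceacam1 and Pilrb1 only through NT.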

How the data were processed

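RNA-seq of 6 samples was analysed, 3 KE and 3 NT, grouped by their titles. The authors deposited a normalized signal per gene and sample, which is the gene count divided by a size factor. The submitters' processing notes name Trim Galore, STAR, Salmon and DESeq2, and the build GRCh38, although the gene identifiers are those of the mouse. The supplemental methods name GRCm39 for mouse reads, and a batch adjustment with no detail, in a paragraph that opens with hippocampus and spheroid samples and names the astrocytes only for a later step. Whole reads could not be recovered, since no more than 77.7% of low values were multiples of the most frequent one (tolerance 0.1), and no count test was run.

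For the 15280 genes with a mean of at least 10, KE and NT were compared by limma 3.58.1 (R 4.3.3) on log2(value + 1), allowing a variance trend and no covariates. Tests were two-sided, with Benjamini-Hochberg adjustment over all genes tested. The fit was tested on simulated data. Fold changes of low genes are understated on this scale. The named genes were the 10 genes, their direct partners, other checkpoint genes called with an absolute log2 difference of at least 1, the 2 most abundant markers of each list (of which 1 myeloid marker is not reported here) and Braf. Further genes of the lists (Traf2, Traf3, Traf6, Hmgb1, Cd200, Pvr, Lgals1, Cd24a, Vtcn1, Btla, Tigit, Cd160, Sirpb1a, Siglech, Sall1 and the CD3 and CD8 genes) were named after their values were seen. The 10 genes and the gene lists were chosen with earlier results of these data known. Ratios were compared by exact permutation. Positions were taken from Gencode vM39 (GRCm39), in which all 141 gene identifiers of the lists were found. Alternatives were other pseudocounts (0.5 and 5), no filter or a mean of at least 50, quantile or 75th percentile scaling, no variance trend, the replicate number as a block, leaving out each sample, and the myeloid sum without Sall1.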

Additional observations from a re-analysis of the deposited data

How the results depend on the processing

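The 8 calls held, with the same sign, under all 14 alternatives of the fit, including the samples left out in turn. Their log2 differences varied as follows. Cd274 ranged from 1.85 to 2.20, Lgals9 from 1.46 to 1.75, Cd40 from 0.86 to 1.19, Cd47 from 0.99 to 1.09, Sirpa from -0.82 to -0.61, Vsir from -2.26 to -1.98, Cd86 from -2.93 to -2.59 and Havcr2 from -3.05 to -2.78. Cd80 crossed the threshold in 2 alternatives, as given above. Qpctl was called with quantile normalization (0.23), the replicate block (0.19, adjusted p = 0.0465 from limma) and without NT replicate 2 (0.24), with adjusted p from 0.0284 to 0.217 over its alternatives. The cause was not tested. With the replicate number as a block, 4 of the 9 tested genes were called higher and 4 lower, as without it, and 8 and 15 of the 37 further checkpoint genes tested, where 8046 of all 15280 genes were called. Same-numbered KE and NT samples deviated together with r of 0.059 to 0.066 across genes, each the best of its KE sample, which is a hint from the data and no pairing by design. Removing Sall1 from the myeloid sum, chosen after the data were seen, moved every ratio by the same amount: Cd274 to 5.26, Lgals9 to 4.83, Cd40 to 4.26, Cd47 to 4.25, Cd80 to 3.57, Sirpa to 2.50, Vsir to 1.07, Cd86 to 0.47 and Havcr2 to 0.31. The ratio of Cd274 to Pdcd1lg2 differed by 1.56 and was not read further, since it rests on the pseudocount where Pdcd1lg2 is at 0. Depth limits what can be said of genes at a few normalized counts, such as Pdcd1 and Pdcd1lg2.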

Other observations

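NT replicate 3 was the lowest of the 3 NT samples for all 9 tested checkpoint genes, whether they rose or fell in KE, against 32% of all tested genes. Its summed myeloid level, 70234, was also below those of NT replicates 1 and 2 (86716 and 87941). Among the 58 further checkpoint genes, 3 that did not pass the mean filter were at or near 0 in NT and detected in each KE sample. Vtcn1, another B7 family gene, was 1.81, 10.01 and 4.53 normalized counts in KE and listed at 0 in NT. Btla, an inhibitory receptor of lymphocytes, was 5.77, 4.76 and 6.04 in KE and 0.94, 1.97 and 1.82 in NT. Pdcd1 was the other. They were chosen after their values were seen, carry no test, and lie at a few reads per sample.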
